A study of Drosophila melanogaster with 4 samples.

Results

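Peroxiredoxins, superoxide dismutases, catalase and the enzymes that keep thioredoxin and glutathione reduced were examined in the adult intestine of Drosophila melanogaster. The 10 genes were Prx2, Prx3, Prx5, Prx6c, Sod1, Sod2, Cat, Trxr1, Gclc and Keap1, taken by symbol from a table of raw read counts for 17510 genes. All 10 had a row in the table, 9 had counts and were tested, and Prx5 was listed at 0 in every library. Total RNA came from dissected intestines without crop and Malpighian tubules, from 2 libraries of flies labelled wild type and 2 labelled as RNAi knockdown mutants of CG5789. CG5789, now named Cftr, is used in the study as the fly gene for the human chloride channel CFTR, and the transgenic RNAi line came from the National Institute of Genetics stock collection. Fly age, sex, strain background, the driver of the RNAi and the number of pooled intestines are not given in the sources used here, and nothing the genotypes have in common beyond the tissue is stated. Effects of the knockdown, the transgene and the line background therefore cannot be told apart. Whether libraries of the same genotype were made from different flies is not stated, and p-values cover only the spread among these 4 libraries, which may be technical. In bulk tissue, fewer cells of a type and less RNA per cell also cannot be told apart.

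Reactive oxygen species are made in the gut by mitochondria and by oxidases that respond to microbes. Superoxide dismutases turn superoxide into hydrogen peroxide, and catalase and peroxiredoxins then break the peroxide down. Peroxiredoxins with a pair of active cysteines are returned to their active form by thioredoxin, which thioredoxin reductase recharges with NADPH. Flies have no glutathione reductase, and the thioredoxin system also keeps glutathione reduced. The transcription factor cnc, the fly counterpart of Nrf2, drives many of these genes and is held back by Keap1.

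Total counts ran from 11294882 in wild type 2 to 30537063 in wild type 1. Levels are CPM, counts relative to the library total after TMM scaling, which corrects for a few abundant genes taking a different share of a library. The libraries stood apart most along an axis other than genotype. The leading principal component of log2 CPM, with 52.6% of the variance, had wild type 1 and RNAi 1 on one side (set 1). Wild type 2 and RNAi 2 were on the other (set 2). The next component, with 34.3% of the variance, had the wild-type libraries on one side and the RNAi libraries on the other. The labels name no batch, and the sets were read from these counts. Cftr itself had 13.8 CPM in both set 1 libraries, 43.4 CPM in wild type 2 and 17.5 CPM in RNAi 2, a fitted log2 fold change of -0.86 (SE 0.57, edgeR adjusted p = 1.0), so the library labelled RNAi 1 was no lower than wild type 1. Without wild type 2 that value was 0.20. All 5 midgut enterocyte markers were present at a summed 9193 to 9929 CPM, while the summed level of 3 ovary markers was at most 1.19 CPM and of 2 testis markers at most 0.256 CPM.

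Within each library set, the peroxiredoxin gene Prx2 lay higher and Prx6c lower in the library labelled RNAi than in wild type. Prx2, the cytosolic peroxiredoxin with a pair of active cysteines, lay 1.64-fold and 1.40-fold higher in the RNAi library of sets 1 and 2, and Prx6c, a peroxiredoxin of the single-cysteine class, lay at 0.140 and 0.192 times wild type. In edgeR with its count filter, neither passed when genotype was the only term, and both passed once the library set was added to the model. With genotype as the only term Prx6c did pass in DESeq2 (adjusted p = 0.000231) and in edgeR with no filter on counts (adjusted p = 7.73e-05). Over all genes these settings called 92 and 120, against 12 in edgeR with its filter. Prx6c did not pass in limma-voom (adjusted p = 0.162). Nor did it in edgeR with other scaling or a minimum mean of 5 CPM (edgeR adjusted p from 0.175 to 0.242). Sod1, Sod2, Cat, Trxr1, Gclc, Keap1 and Prx3 passed in neither edgeR fit.

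Prx6c (FBgn0033518, plus strand of chromosome arm 2R, 10418718 to 10419761, BDGP6) had 403 and 204 counts in wild type 1 and 2, and 61 and 86 counts in RNAi 1 and 2. On the CPM scale these were 13.9 and 18.3 in wild type against 1.96 and 3.51 in the RNAi libraries. Both RNAi libraries lay below both wild-type libraries, and Prx6c was the one member of the 9 tested whose genotypes did not overlap, a separation found for 24.2% of all tested genes. By the quasi-likelihood test of edgeR across 9637 genes the RNAi libraries differed from wild type by -2.56 on the log2 scale (SE 0.45), with an unadjusted p of 7.06e-04 that became 0.185 after adjustment. With the library set as a term it fell by 2.60 on the log2 scale (SE 0.23, edgeR adjusted p = 6.37e-11). The exact 95% intervals of the within-set ratios, which cover counting error only, were 0.105 to 0.184 in set 1 and 0.147 to 0.248 in set 2.

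Prx6c is one of 3 related genes that lie within 9198 bases of each other, the others being Prx6b and CG12896, and the split of reads among such copies is uncertain. Prx6b and CG12896 together had 28 and 17 counts in the wild-type libraries and 32 and 56 in the RNAi libraries, which differ in total count. Scaled, Prx6b had 0.588 and 0.628 CPM in wild type and 0.673 and 1.10 CPM in the RNAi libraries. CG12896 had 0.381 and 0.898 CPM in wild type and 0.353 and 1.18 CPM in the RNAi libraries. The 3 genes summed gave 14.9 and 19.8 CPM in wild type against 2.98 and 5.79 CPM in the RNAi libraries, so the lower level held for the sum of counted reads. Reads that map to more than 1 copy can be lost before counting, and the sum does not restore them. Whether such loss differed between the genotypes was not tested. As a single feature the 3 had a log2 fold change of -1.99 (SE 0.46, edgeR adjusted p = 0.438), and with the set as a term -2.04 (SE 0.21, edgeR adjusted p = 9.05e-10). The summing was added once the values had been seen. Markers of tissue outside the gut wall also differed between these libraries. The 3 Malpighian tubule markers, all detected, summed to 12.5 and 3.95 CPM in wild type and to 4.81 and 2.73 CPM in the RNAi libraries, with Uro at 0 in RNAi 2. Prx6c had 13.9 and 18.3 CPM in wild type 1 and 2 and 1.96 and 3.51 CPM in RNAi 1 and 2. The 3 haemocyte markers, all detected, summed to 0.588 and 0.987 CPM in wild type and 5.32 and 3.26 CPM in the RNAi libraries, with eater at 0 in both wild-type libraries. The part of these cell types in the Prx6c difference was not tested.

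Prx2 (FBgn0040309, plus strand of chromosome X, 13329824 to 13331994) had 9529 and 2400 counts in wild type 1 and 2 and 16876 and 7405 counts in RNAi 1 and 2. The CPM were 329.7 and 215 in wild type against 541 and 302 in the RNAi libraries. RNAi 1 was the highest and wild type 2 the lowest, while wild type 1 lay above RNAi 2, so the genotypes overlapped. Its log2 fold change was 0.63 (SE 0.46, edgeR adjusted p = 1.0), and with the set as a term Prx2 rose by 0.60 on the log2 scale (SE 0.19, edgeR adjusted p = 0.0416). With genotype as the only term the Prx2 value was 0.15 without RNAi 1, 0.35 without wild type 2, 0.94 without wild type 1 and 0.95 without RNAi 2. Counting error alone gave 1.60 to 1.68 around the ratio in set 1 and 1.34 to 1.47 in set 2 (exact 95% intervals). In the edgeR fit with the set as a term 7.10% of all tested genes passed, 3.45% higher and 3.65% lower, against 1 member higher and 1 lower of 9.

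The mitochondrial peroxiredoxin Prx3 (FBgn0038519, minus strand of 3R, 17545222 to 17546531) differed little between the genotypes, at 124 and 75.8 CPM in wild type against 108 and 72.5 CPM in the RNAi libraries. It was high in both libraries of set 1 and low in both of set 2. Its log2 fold change was -0.15 (SE 0.43), and -0.13 (SE 0.17, edgeR adjusted p = 0.772) with the set as a term. As a share of the summed CPM per kilobase of exon of Prx2, Prx3, Prx4, Prx6a and Prx6c, Prx2 made up 46.8% and 46.7% in the wild-type libraries against 63.1% and 59.5% in the RNAi libraries. The share of Prx6c on the same scale was 3.38% and 6.79% in wild type against 0.390% and 1.18% in the RNAi libraries. Prx6b and CG12896 were left out of the sum, and this share depends on the uncertain split of reads among the copies. Per kilobase they stood at 0.741 and 1.06 CPM in wild type 2 beside 21.4 for Prx6c. In RNAi 2 they stood at 1.30 and 1.39 CPM beside 4.10. No test of these shares was run.

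**Figure D1:**
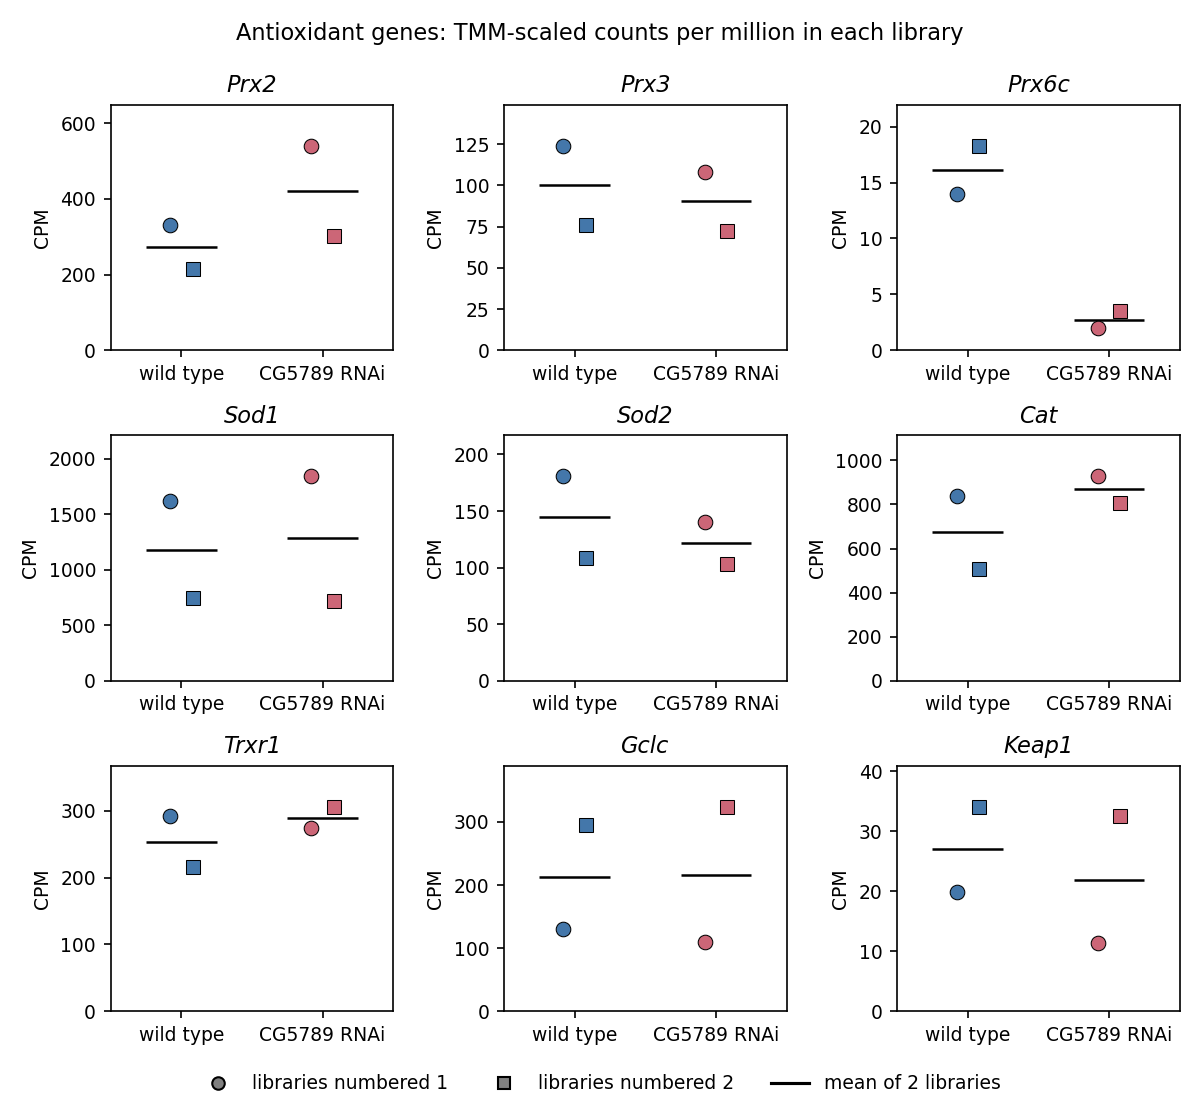
CPM of the 9 antioxidant genes with counts, 1 panel a gene, with wild-type libraries in blue and CG5789 RNAi libraries in red. Circles are wild type 1 and RNAi 1, squares wild type 2 and RNAi 2, and the bar is the mean of 2 libraries. Prx6c alone has both RNAi points below both wild-type points, and in every panel but Prx6c and Trxr1 the circles and squares separate while the genotypes overlap.

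Prx5, a peroxiredoxin found in several compartments of the fly cell, had 0 counts in all 4 libraries, and the table gives no level for it. The gene (FBgn0038570) lies on the minus strand of 3R at 18165442 to 18167273. All 1449 of its annotated exonic bases fall within exons of CG7215 on the same strand, and CG7215 was also at 0 in every library. Of 316 protein-coding genes with no exonic base free of a same-strand neighbour, 309 were at 0 in all libraries, or 97.8%. Of a further 75 whose exons were fully covered only when both strands were counted, 69 were at 0, or 92.0%. Among the 13476 protein-coding genes with at least 1 exonic base of their own the share was 3.93%. The 0 of Prx5 can therefore not be read as missing expression. Of the other members, only Trxr1 shares exonic bases with a neighbour, 435 of 3147, with sni on the opposite strand.

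Of the superoxide dismutases, the cytosolic copper and zinc enzyme gene Sod1 (FBgn0003462, minus strand of 3L, 11112281 to 11113740) had 1614 and 746 CPM in wild type and 1843 and 722 CPM in the RNAi libraries. Set 1 lay above set 2 in both genotypes, and the genotypes overlapped. For Sod1 the log2 fold change was 0.12 (SE 0.59), and 0.072 (SE 0.20, edgeR adjusted p = 0.918) with the set as a term. The mitochondrial manganese enzyme gene Sod2 (FBgn0010213, minus strand of 2R, 16772785 to 16773915) had 181 and 108 CPM in wild type and 140.4 and 103 CPM in the RNAi libraries. Each RNAi library lay below the wild type of its set, yet RNAi 1 lay above wild type 2. For Sod2 it was -0.25 (SE 0.42), and -0.22 (SE 0.18, edgeR adjusted p = 0.596) with the set as a term. Per kilobase of exon Sod1 stood at 12.3 and 9.53 times Sod2 in wild type and at 18.1 and 9.65 times in the RNAi libraries.

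Cat, which encodes the peroxisomal catalase (FBgn0000261, plus strand of 3L, 18822604 to 18828188), had 839.9 and 509 CPM in wild type and 929 and 808 CPM in the RNAi libraries. Wild type 2 was the low library, and wild type 1 lay between the RNAi libraries. The RNAi to wild-type ratio was 1.11 in set 1 (exact 95% interval 1.09 to 1.12, counting error only) and 1.59 in set 2 (1.54 to 1.64). Fitted over both sets, Cat had a log2 fold change of 0.36 (SE 0.42, edgeR adjusted p = 1.0), and 0.41 (SE 0.20, edgeR adjusted p = 0.292) with the set as a term. Without wild type 2 the Cat value with genotype alone was 0.058, and without wild type 1 it was 0.75.

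Trxr1, the thioredoxin reductase gene (FBgn0020653, plus strand of X, 8242528 to 8248033), had 292 and 215 CPM in wild type and 273 and 306 CPM in the RNAi libraries. The RNAi library was lower in set 1, with a ratio of 0.936 (0.908 to 0.964), and higher in set 2, with a ratio of 1.42 (1.36 to 1.49). Fitted over all libraries, Trxr1 had a log2 fold change of 0.19 (SE 0.39), and 0.21 (SE 0.19, edgeR adjusted p = 0.656) with the set as a term. With genotype alone and a library left out it ranged from 0.0035 without wild type 2 to 0.41 without wild type 1. Trxr1 was the steadiest member on a fold scale, with its highest library at 1.42 times its lowest, whereas for Prx6c that ratio was 9.37.

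Gclc encodes the catalytic subunit of the ligase that starts glutathione synthesis (FBgn0040319, minus strand of X, 8102181 to 8116147). It had 130.1 and 295 CPM in wild type and 109 and 324 CPM in the RNAi libraries, so both set 2 libraries lay above both set 1 libraries. Between the genotypes Gclc had a log2 fold change of 0.028 (SE 0.63), and -0.059 (SE 0.18, edgeR adjusted p = 0.929) with the set as a term. Gclm, the modifier subunit of the same ligase, named here after its values were seen, ran the other way across sets, at 536 and 262 CPM in wild type and 404 and 248 CPM in the RNAi libraries. Per kilobase of exon, Gclc stood at 0.0830 and 0.3855 times Gclm in wild type 1 and 2, and at 0.0922 and 0.447 times in RNAi 1 and 2.

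Keap1, the gene of the cytoplasmic inhibitor of cnc (FBgn0038475, minus strand of 3R, 17073942 to 17079945), had 574 and 380 counts in wild type and 354 and 798 in the RNAi libraries. Scaled, these were 19.9 and 34.1 CPM in wild type against 11.3 and 32.5 CPM. RNAi 1 was the lowest library, and both set 2 libraries were above both set 1 libraries. The RNAi to wild-type ratio was 0.571 in set 1 (exact 95% interval 0.499 to 0.653) and 0.954 in set 2 (0.843 to 1.08). In the fit Keap1 was at -0.30 on the log2 scale (SE 0.58, edgeR adjusted p = 1.0), and -0.43 (SE 0.18) with the set as a term, with an unadjusted p of 0.0251 and an edgeR adjusted p of 0.190. Its partner cnc, named after its values were seen, had 171 and 277 CPM in wild type and 159 and 271 CPM in the RNAi libraries.

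**Figure D2:**
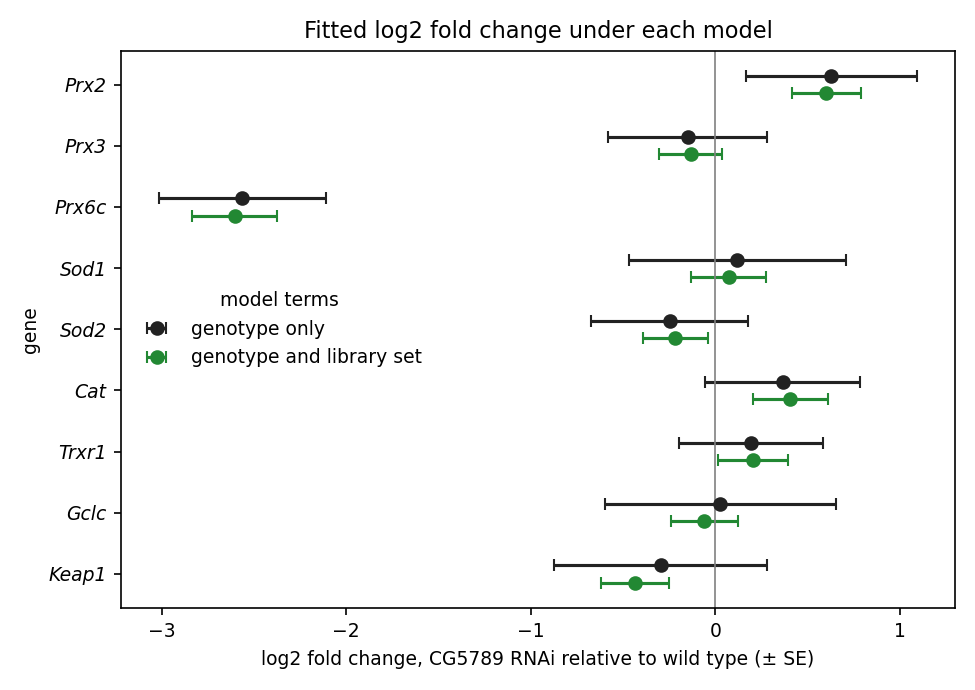
Fitted log2 fold change of the 9 tested genes, RNAi relative to wild type, with bars of 1 SE, for the model with genotype alone (black) and with genotype and library set (green). Prx6c at -2.56 and -2.60 is the one gene far from 0 in both, Prx2 is at 0.63 and 0.60, and the SE narrows with the set as a term.

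Over the 9 tested members none passed an adjusted p of 0.05 in edgeR with genotype as the only term, where 0.125% of all genes passed, 12 of 9637 (0.104% higher and 0.0208% lower). At an unadjusted p under 0.05 there was 1 member, Prx6c, against 3.83% of all genes. DESeq2 called 1, again Prx6c, and limma-voom called 0. With the set as a term 3 members had an unadjusted p under 0.05, Prx2, Prx6c and Keap1, against 17.7% of all genes. The median log2 fold change of the members was 0.028, and -0.059 with the set as a term, beside 0.0065 and 0.0040 over all tested genes. Because the sets come from these very counts, and that fit leaves only 1 degree of freedom for error, its p-values can be too small. An exact permutation test of 2 libraries against 2 cannot give a two-sided p below 0.333.

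Compared per kilobase of annotated exon, the members spanned a wide range of levels. Exon length here joins all annotated transcripts of a gene. The difference between the sets also went with exon length (Spearman's rho 0.529 over the tested genes with a length). Levels of short and long genes therefore compare only roughly. Sod1 was highest, at 982 to 2507 CPM per kilobase over the 4 libraries, above the range of every other member. Cat followed at 255.5 to 466 and Prx2 at 147 to 369, and although these ranges overlapped, Cat was above Prx2 in each library. Sod2 at 102 to 178 lay below Prx2 and above Prx3, at 71.3 to 122, in each library. Trxr1, at 68.3 to 97.3, overlapped Prx3 and lay above it in RNAi 2 only, so the order of these neighbours was not settled. The length used for Trxr1 also holds the 435 bases shared with sni, where reads may go uncounted. A level on its unshared bases alone was not computed. Gclc was at 24.8 to 73.7, below Trxr1 in each library. Prx6c at 2.28 to 21.4 and Keap1 at 3.29 to 9.90 came last, in changing order: Prx6c was the higher in the wild-type libraries and Keap1 in the RNAi libraries. By its mean level Sod1 exceeded 99.3% of tested genes and Keap1 52.3%.

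The sets separated most members more than the genotypes did. The difference in log2 CPM, set 2 minus set 1 averaged over the genotypes, was 1.38 for Gclc and 1.15 for Keap1. At the other end it was -1.23 for Sod1, -0.73 for Prx2, -0.64 for Prx3, -0.59 for Sod2 and -0.46 for Cat. Trxr1 was at -0.14 and Prx6c at 0.60. In these 9 genes the difference went with annotated exon length, with a Spearman's rho of 0.683 across genes, and over the 9585 tested genes with an annotated length rho was 0.529. Gclc has 4402 exonic bases and Keap1 3447, whereas Sod1 has 735, Sod2 1015 and Prx3 1017. Prx6c, with 856, was the short member that lay higher in set 2. These points share the same 4 libraries and are no independent replicates. The RNAi to wild-type difference without the set term had a rho of 0.117 with exon length over the same genes. The summed level of 2 visceral muscle markers, both detected, also moved with the set, at 181.5 and 141 CPM in set 1 and 674 and 472 CPM in set 2 (wild type and RNAi in turn). So did the 4 fat body markers, all detected, at 17.2 and 16.4 CPM in set 1 and 33.5 and 48.3 CPM in set 2, with Fbp1 at 0 in both set 2 libraries and Lsp2 at 0 in wild type 2. The Malpighian tubule sum given above and the 1 hindgut marker, byn, at 1.42 and 1.96 CPM in set 1 and 0.539 and 1.18 CPM in set 2, were higher in set 1. The part of these cell types or of exon length in the set difference of the members was not tested.

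**Figure D3:**
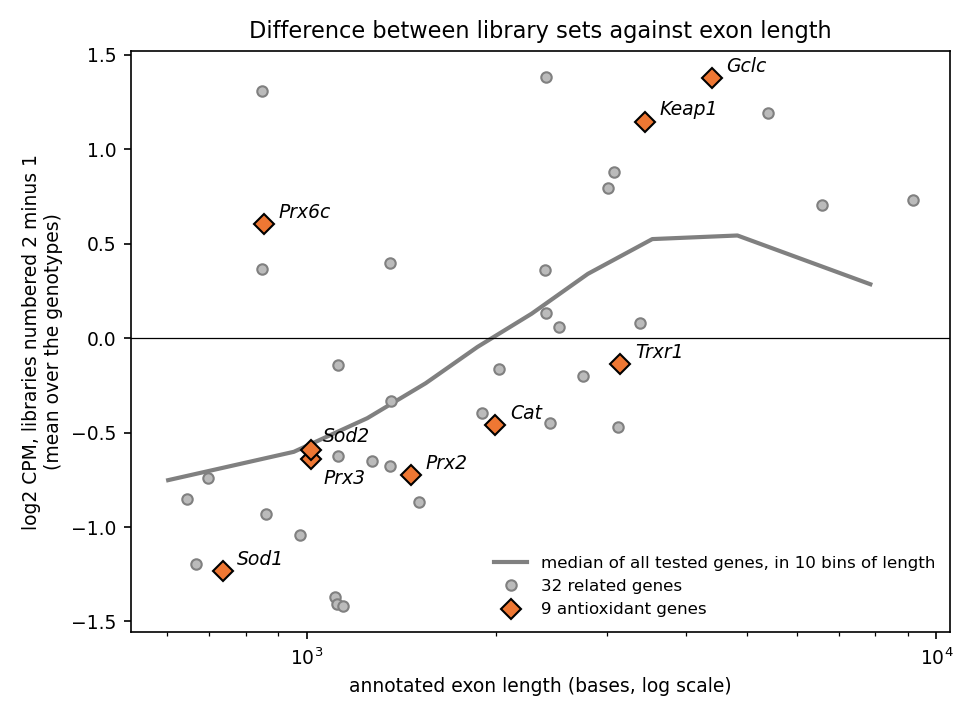
Difference in log2 CPM between the library sets (set 2 minus set 1, mean over the genotypes) against annotated exon length on a log axis, for 9 antioxidant genes (diamonds), 32 related genes (circles) and the median of all tested genes in 10 bins of length (line). The line climbs from -0.75 in the shortest bin to 0.54 in bin 9 and drops to 0.285 in bin 10, the longest. Of the 9 diamonds Sod1 at -1.23 is lowest and Gclc at 1.38 highest.

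Around the members, 39 genes of the same pathways were taken from 8 lists, and 32 had enough counts to be tested. None passed in edgeR with genotype alone (0 by DESeq2 and 0 by limma-voom). With the set as a term 1 rose and 2 fell, 3 of 32 beside 7.10% of all genes, a share near the background. At an unadjusted p under 0.05 in edgeR there were 2 of 32 with genotype alone, against 3.83% of all genes. There were 7 of 32 with the set as a term, against 17.7% of all genes. MsrA, a methionine sulfoxide reductase that repairs oxidised methionine, had 315 and 401 CPM in wild type against 127 and 173 CPM in the RNAi libraries, without overlap. With the set as a term it fell by 1.27 on the log2 scale (SE 0.18, edgeR adjusted p = 4.22e-06). It was the one of 8 tested thioredoxin, glutaredoxin and repair genes that passed, and SelR, the other methionine sulfoxide reductase and named after its values were seen, stood at -0.51 (edgeR adjusted p = 0.0577).

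Men-b, a malic enzyme gene whose family supplies NADPH, had 138 and 121 CPM in wild type against 219 and 279 CPM in the RNAi libraries, again without overlap. It rose by 0.93 on the log2 scale with the set as a term (SE 0.19, edgeR adjusted p = 6.40e-04) and was the one of 7 NADPH genes to pass. Ggt-1, a gamma-glutamyl transpeptidase gene of glutathione breakdown, had 43.9 and 50.4 CPM in wild type and 31.4 and 32.9 CPM in the RNAi libraries. It fell by 0.55 on the log2 scale with the set as a term (SE 0.16, edgeR adjusted p = 0.0324), as the one of 3 tested glutathione genes, but did not pass in DESeq2 with the same terms (adjusted p = 0.216).

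In the remaining lists no gene passed in either edgeR fit. With genotype alone, the gene with the smallest p among 4 other peroxiredoxins was Prx6b, at 0.588 and 0.628 CPM in wild type and 0.673 and 1.10 CPM in the RNAi libraries. Prx4 and Prx6a, named after their values were seen, had log2 fold changes of -0.12 and -0.20. Ccs, the copper chaperone of Sod1, was at 0.47 (SE 0.53) and Ho, the haem oxygenase gene, at -0.39 (SE 0.37). The dual oxidase maturation factor gene mol was at -0.91 (SE 0.54), with wild-type levels of 2.01 and 3.23 CPM against 0.929 and 1.83 CPM under RNAi, and ref(2)P, the fly p62 gene, at 0.23 (SE 0.63). Without overlap between the genotypes there were 2 higher and 6 lower of the 32, beside 12.0% and 12.2% of all tested genes.

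**Figure D4:**
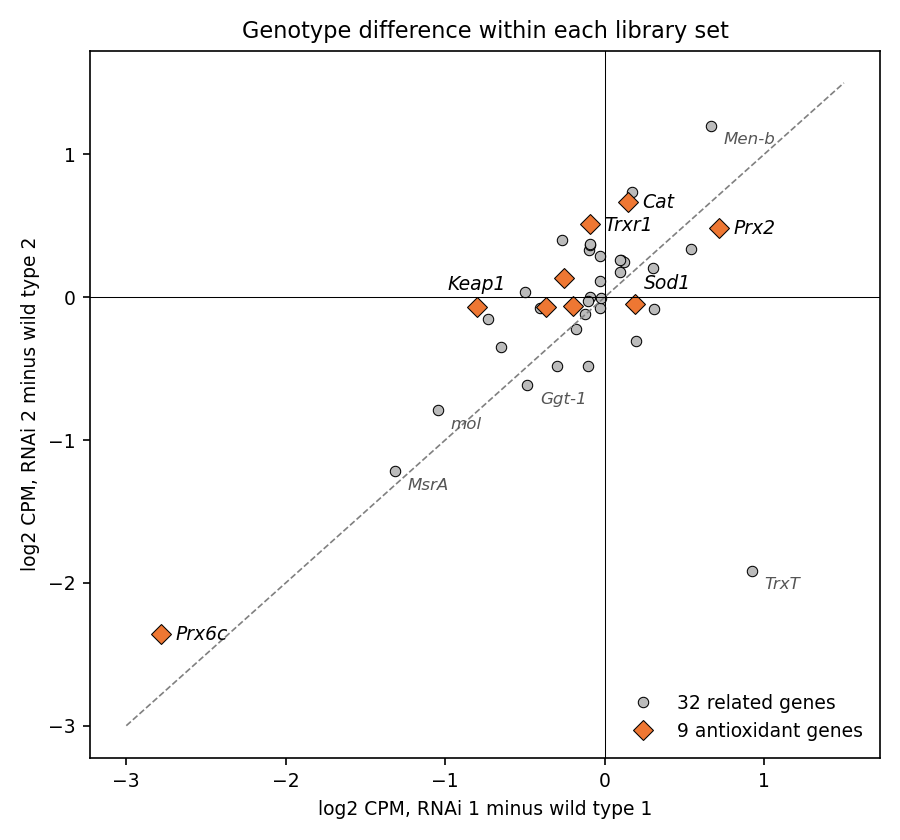
Difference in log2 CPM between RNAi and wild type in set 1 (horizontal) and set 2 (vertical) for 9 antioxidant genes (diamonds) and 32 related genes (circles), with the dashed line marking equal differences. Prx6c at -2.78 and -2.36 and MsrA at -1.32 and -1.22 lie low in both sets, Men-b and Prx2 lie high in both, and Trxr1 lies on opposite sides of 0.

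The genes whose profile over the 4 libraries was most like that of Prx2 and Prx6c were sought among 6759 others with a mean of at least 5 CPM, by the root mean square difference of centred log2 CPM. For Prx2 these were Gbeta5, a G protein subunit gene (0.035), AANATL3, of an arylalkylamine N-acetyltransferase family (0.0543), and veli (0.0685). The wild-type levels of AANATL3 were 140.4 and 90.9 CPM, and its RNAi levels 235 and 119 CPM. For Prx6c they were CG3635 (0.142), the cytochrome P450 gene Cyp6a8 (0.235) and Pepck2, of the phosphoenolpyruvate carboxykinase family (0.235). CG3635 had 30.3 and 40.4 CPM in wild type against 4.07 and 6.08 CPM under RNAi. With 4 libraries and this many genes some profiles lie close without any link, and no correlation was computed.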

How the data were processed

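The authors deposited whole-number read counts per FlyBase gene, not normalized, with 1 column for each library and none left unused. Reads went through FastQC and STAR on assembly BDGP6, per the submitters' processing notes. How reads were assigned to genes, whether by strand, and with which annotation are not given in the sources used here. Symbols matched 17405 of 17510 identifiers. Positions and exon lengths came from an Ensembl annotation of BDGP6, whose release may differ from that behind the counts.

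The test was edgeR 4.0.16 under R 4.3.3, with filterByExpr (9637 genes kept), TMM factors, robust quasi-likelihood fits of genotype over all 4 libraries, Benjamini-Hochberg adjustment over every tested gene and a threshold of 0.05. SE is the log2 fold change divided by the root of the F statistic, and log2 CPM had a prior count of 2. Scripts were tested on simulated data. Other settings were scaling by RLE, by upper quartile or by total count, filtering at a mean of 5 CPM or not at all, leaving out each library, DESeq2 1.42.0, limma-voom (limma 3.58.1) and a term for the library set. Where 1 library of a genotype was left, it was assumed to vary like the others. Exact intervals are binomial at 95% (scipy 1.17.1). Libraries carry numbers in order of deposit, which no label gives. The sets, read from the counts, hold the libraries of like number.

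The members, lists, library sets and settings were chosen with earlier results of these data known. Named genes were all members and Cftr, each related gene past the threshold with or without the set term, otherwise the gene of its list with the smallest p with genotype alone, and the 3 most alike in profile to each member that passed. Of the marker lists, one is not mentioned above: enteroendocrine cells summed to 107 to 152 CPM over the libraries. Stem cell markers were not analysed here.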

Additional observations from a re-analysis of the deposited data

How the results depend on the processing

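The number of genes called, 12 in edgeR with TMM, was 1 with upper-quartile factors, 1 with a minimum mean of 5 CPM, 120 with no filter on counts, 92 in DESeq2, 58 to 120 with a library left out, and 684 (edgeR) or 413 (DESeq2) with the set as a term. Members called numbered 0 in edgeR with TMM, 1 with no filter, 1 in DESeq2, 0 to 1 with a library left out, and 2 with the set as a term in either tool. The single call was Prx6c, which passed without wild type 1 (adjusted p = 0.00165), wild type 2 (0.0331) or RNAi 2 (0.0110), but not without RNAi 1. Its log2 fold change ranged from -3.08 to -2.20 with a library left out and from -2.62 to -2.47 elsewhere, with edgeR, DESeq2 or limma adjusted p from 3.86e-12 to 0.242. Prx2 ranged from 0.15 to 0.95 with a library left out. Related genes called numbered 0, and 3 (edgeR) or 2 (DESeq2) with the set as a term, where Ggt-1 was lost in DESeq2.

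Over 117 refits of single members 96 kept direction and side of the threshold, 9 passed where the first fit did not, and 12 changed sign, 9 of these with a library left out. With a library left out, the log2 fold change ranged from -0.46 to 0.23 for Prx3, -0.56 to 0.15 for Sod2, -1.01 to 0.77 for Gclc, -0.48 to 0.22 for Prx4, -0.75 to 0.31 for Prx6a, -0.63 to 1.15 for ref(2)P, -0.77 to 1.03 for CG12896 and -0.71 to 0.29 for Gclm. The sign of these turned without wild type 1 and, except for Sod2 and Gclm, also without RNAi 2. It ranged from -0.71 to 0.75 for Sod1, -1.29 to 0.27 for Keap1, -0.54 to 0.35 for cnc, -0.21 to 0.998 for Ccs and -1.48 to 0.20 for Cftr. The sign turned without RNAi 1 for all of these but Cftr, and without wild type 2 for all but Ccs. Gclc was also at -0.069 by limma-voom, and at -0.059 (edgeR) and -0.057 (DESeq2) with the set as a term, and cnc at 0.032 with scaling by total count. The cause was not tested. The labels give no replicate numbers to pair by, and the set term, whose pairs were read from the counts, is the one blocked fit. It leaves too few degrees of freedom to drop a library as well. Prx6b, mol and CG12896 fall under the minimum of 5 CPM and have no value there.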

Other observations

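Some genes of the surrounding pathways gave almost no counts, and were named after their values were seen. Duox, the dual oxidase that releases hydrogen peroxide in the gut, had 1 and 6 counts in wild type 1 and 2 and 9 and 2 counts in RNAi 1 and 2. Its 5336 annotated exonic bases overlap no other gene, and the cause of its low counts was not tested. The adjacent glutathione synthetase genes Gss1 and Gss2, both with 2838 exonic bases, had 0 to 5 and 0 to 6 counts in the libraries, and Gpxl was listed at 0 in all of them. Counts of Gss1 and Gss2 can be lost where reads map to both, which was not tested here.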
